A study of Nannochloropsis oceanica with 15 samples.

Results

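Total RNA of Nannochloropsis oceanica strain IMET1, a unicellular marine alga that stores oil, was sequenced during culture in medium without phosphate. The 3 libraries taken at 12 h were compared with the 3 taken at 6 h, which makes 6 of the 15 libraries of a course with samples at 0, 6, 12, 24 and 48 h. All 10434 genes of the deposited table entered, and 9321 of them had enough counts to be tested. Both groups are the same strain, grown in modified f/2 medium under continuous light, washed with seawater and transferred to f/2 medium lacking phosphate, and they differ in the time since that transfer. All libraries of the course, also the 3 of 0 h, carry the label of phosphate deprivation. No library of a culture in complete medium was analysed here, so time, handling and deprivation cannot be told apart. The labels mention triplicate cultures without saying whether a letter marks 1 culture, so the p-values measure the spread between libraries, which may be technical.

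Algae and plants short of phosphate are known to take up phosphate through dedicated transporters, to sense their phosphate status through proteins with an SPX domain, and to replace membrane phospholipids with lipids that hold no phosphorus, such as sulfolipid and betaine lipid. Nannochloropsis is also known for triacylglycerol held in droplets coated by a lipid droplet surface protein. Its cell wall holds cellulose, and proteins and polysaccharides bound for the cell surface pass through the endoplasmic reticulum and the Golgi apparatus, where sugars are attached to them. Gene names below are homology annotations of the table, and the roles given are those known from plants, yeast or animals, not shown here for this alga.

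Total counts were 16649421 to 21655636 in the 12 h libraries and 16661053 to 26349336 in the 6 h libraries. Across genes, log2 levels correlated at 0.913 to 0.919 within 12 h, at 0.908 to 0.925 within 6 h and at 0.848 to 0.867 between the 2 times, so that no library stood apart from its time. Genes are not independent replicates, and these correlations are a description. A gene was called where edgeR's quasi-likelihood test gave an adjusted p under 0.05. By that rule 2190 genes (23.5%) were called higher at 12 h and 2168 (23.3%) were called lower. The called changes were larger upward, since 970 genes were called and at least 2-fold higher (10.4%), and 290 were called and at least 2-fold lower (3.11%). At 4-fold or more, 410 were higher and 41 lower. The 3 libraries of 12 h lay all above those of 6 h for 2462 genes (26.4%) and all below for 2541 (27.3%). Genes described below passed that test unless the text says that they were not called. Levels are CPM, the counts scaled to the TMM-adjusted library total, n = 3 libraries per time, and a change in the total RNA of a cell cannot be seen in them. In such bulk samples fewer cells in a given state and less RNA per cell cannot be told apart. Differences are log2 fold changes, 12 h over 6 h, ± SE from the edgeR fit.

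**Figure D1:**
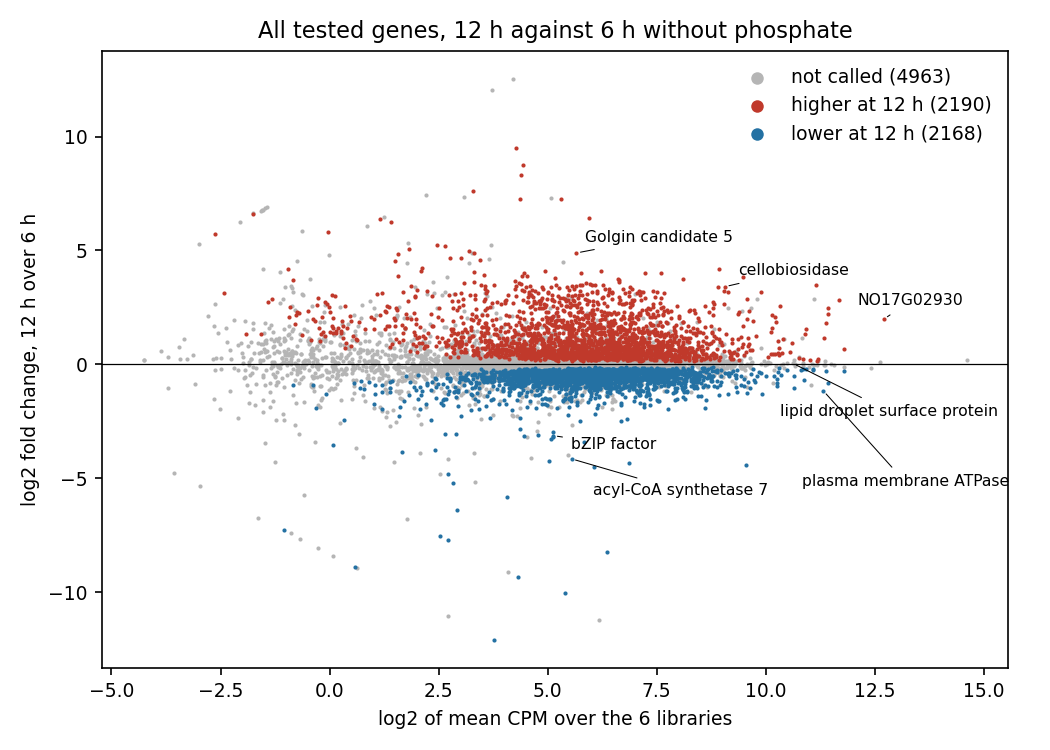
Each point is 1 of the 9321 tested genes, with log2 of its mean CPM over the 6 libraries on the x axis and its log2 fold change, 12 h over 6 h, on the y axis. Red points (2190) were called higher at 12 h, blue points (2168) lower and grey points neither, and the red cloud reaches further from 0 than the blue one at most levels.

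Many transcripts of the secretory pathway were higher at 12 h, though not those of every subgroup. Of 113 tested genes of vesicle traffic and secretion, 57 were higher and 10 lower, with a median log2 fold change of 0.41, against -0.018 over all tested genes. Subgroups of a list, and the genes named from them that are not its largest changes, were picked after their values were seen, and are a description. Counts of a list are to be read beside the shares of all tested genes, 23.5% higher and 23.3% lower. A list near those shares does not differ from the tested genes at large. The 7 tested subunits of the COPI coat (coatomer), which returns vesicles from the Golgi to the endoplasmic reticulum, were all among the called risers, with log2 fold changes of 0.51 to 1.74. Coatomer epsilon-1 (NO07G04560) had 224, 276 and 263 CPM at 12 h, against 80.3, 82.4 and 64.9 CPM at 6 h. Its libraries did not overlap (log2 fold change 1.74 ± 0.11, edgeR adjusted p = 4.0e-07). Coatomer gamma-2 (NO15G02980) averaged 664 ± 10.7 CPM at 12 h, against 310.2 ± 6.88 CPM at 6 h (log2 fold change 1.10 ± 0.07, edgeR adjusted p = 4.6e-07). Of 5 tested genes of the COPII coat, which carries cargo out of the endoplasmic reticulum, 3 were higher and 0 lower, among them SEC13 (NO26G00190) with 269 ± 25.3 CPM at 12 h, against 114 ± 9.26 CPM at 6 h (log2 fold change 1.24 ± 0.09, edgeR adjusted p = 8.8e-07). The COPII subunit SEC23 (NO06G04540) averaged 626 ± 30.6 CPM at 12 h, against 349.5 ± 76.3 CPM at 6 h and was not called (edgeR adjusted p = 0.19), although its libraries did not overlap. It was called without 0 h replicate c (edgeR adjusted p = 0.017), a library that enters through the shared estimate of spread.

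The largest called change of this list was in a Golgi protein. Golgin candidate 5 (NO15G01410), of a family of coiled-coil proteins that tether vesicles to the Golgi, had 107, 92.7 and 93.6 CPM at 12 h, against 3.87, 2.96 and 3.07 CPM at 6 h. The lowest 12 h library lay far above the highest 6 h library (log2 fold change 4.89 ± 0.32, edgeR adjusted p = 4.0e-07). A plant SNARE of the NPSN type (NO02G04230), a membrane fusion protein, had 77.2, 91.3 and 95.5 CPM at 12 h, against 9.58, 10.3 and 6.94 CPM at 6 h (log2 fold change 3.30 ± 0.25, edgeR adjusted p = 1.1e-06). Of 29 tested SNAREs and their partners, 17 were higher and 2 lower, among the risers syntaxin-43 (NO05G04750) with 78.1 ± 8.21 CPM at 12 h, against 13.5 ± 2.41 CPM at 6 h (log2 fold change 2.53 ± 0.17). The Golgi-type small GTPase RABH1d (NO07G03710) averaged 46.1 ± 15.99 CPM at 12 h, against 7.18 ± 2.39 CPM at 6 h (log2 fold change 2.68 ± 0.45). Rab GTPases and their regulators, RABH1d included, had 6 higher and 3 lower of 14 tested.

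Other carriers of membrane traffic moved less evenly. Of 15 tested genes of clathrin and its adaptors, 5 were higher and 2 lower. The risers were subunits of adaptor complexes, such as AP-1 sigma-1 (NO25G01680), which sorts cargo at the Golgi, with 59.6 ± 3.91 CPM at 12 h, against 30.6 ± 3.58 CPM at 6 h (log2 fold change 0.96 ± 0.10). A clathrin heavy chain (NO04G03090) fell to 74.3 ± 5.69 CPM at 12 h, against 102 ± 15.1 CPM at 6 h (log2 fold change -0.46 ± 0.14), a call lost without 6 h replicate b (edgeR adjusted p = 0.064) or 12 h replicate a (edgeR adjusted p = 0.051). Clathrin heavy chain 1 (NO01G02520), with 59.8 FPKM at 12 h against the 6.67 FPKM of that gene, had 895, 809 and 758 CPM at 12 h, against 846, 781 and 741 CPM at 6 h and was not called (log2 fold change 0.06 ± 0.08). Of 5 tested proteins of the transmembrane 9 superfamily, endomembrane proteins found by their Pfam domain and not part of a list, 4 were higher and 0 lower. Member 10 (NO07G03610) had 1076, 1095 and 1102 CPM at 12 h, against 251, 232 and 224 CPM at 6 h (log2 fold change 2.21 ± 0.14, edgeR adjusted p = 2.7e-07). The ADP-ribosylation factors, small GTPases that recruit coats, and their regulators had 10 higher and 3 lower of 22 tested, with the highest level per length in NO08G03280, which averaged 1228 ± 79.6 CPM at 12 h, against 523 ± 33.9 CPM at 6 h (log2 fold change 1.23 ± 0.10). Signal peptide peptidase 2 (NO29G00030), which clears signal peptides from the membrane, had the largest called fall of the list, with 41.6, 35.8 and 43.3 CPM at 12 h, against 61.5, 106 and 128 CPM at 6 h (log2 fold change -1.29 ± 0.36, edgeR adjusted p = 0.011). With it, genes of the translocon, signal recognition and signal peptidase had 6 higher and 1 lower of 21 tested, and 14 were not called. Exocyst genes of the list had 2 higher and 2 lower of 6 tested.

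Genes that supply and attach sugars in the Golgi were the list with the highest median. Of 65 tested genes of nucleotide sugar transport and glycosylation, 38 were higher and 10 lower, 23 of the risers by at least 2-fold, with a median log2 fold change of 0.63. GDP-fucose transporter 1 (NO08G01610) is named by homology after a protein that brings activated fucose into the Golgi. Its only listed domain is that of a predicted membrane protein (DUF2231), and no sugar transporter domain is listed for it. This gene had 40.1, 40.6 and 39.1 CPM at 12 h, against 2.91, 2.25 and 2.89 CPM at 6 h. No 6 h library came near those of 12 h (log2 fold change 3.89 ± 0.45, edgeR adjusted p = 2.6e-05). A neighbouring gene with the same name (NO08G01620) averaged 91.8 ± 5.17 CPM at 12 h, against 8.47 ± 0.682 CPM at 6 h (log2 fold change 3.44 ± 0.15). Of 19 tested nucleotide sugar transporters 12 were higher and 2 lower. Those that were lower were of the UDP-galactose/UDP-glucose type, with log2 fold changes of -0.30 and -0.41. That type did not fall as a whole, since of 2 genes named UDP-galactose/UDP-glucose transporter 3, 1 was higher and 1 lower.

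Enzymes on the way to GDP-fucose, which were in no list and were looked up after the transporters were seen, rose as well. GDP-mannose 4,6-dehydratase 2 (NO12G00550), which starts the conversion of GDP-mannose to GDP-fucose, had 872, 1129 and 1053 CPM at 12 h, against 109, 112 and 113 CPM at 6 h (log2 fold change 3.19 ± 0.19, edgeR adjusted p = 2.2e-07). GDP-L-fucose synthase 1 (NO12G01370), which completes it, had 735, 677 and 672 CPM at 12 h, against 144, 148 and 132 CPM at 6 h (log2 fold change 2.30 ± 0.12, edgeR adjusted p = 1.1e-07). Both genes had the 3 libraries of each time close together. Of the 7 tested genes between mannose phosphates and GDP-fucose, 5 were higher and 0 lower, and phosphomannomutase (NO02G05610), an early step, averaged 152 ± 8.42 CPM at 12 h, against 70.4 ± 9.85 CPM at 6 h (log2 fold change 1.11 ± 0.10). Among fucosyl-, galactosyl- and xylosyltransferases, which transfer the sugars, 9 of 10 tested were higher and 0 lower. A glycoprotein 3-alpha-L-fucosyltransferase (NO29G00460) had 100.1, 110.1 and 111 CPM at 12 h, against 11.7, 12.5 and 13.5 CPM at 6 h (log2 fold change 3.09 ± 0.19, edgeR adjusted p = 2.6e-07).

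The glycosylation list was not uniform. STELLO1 (newGene_73), a Golgi glycosyltransferase known in Arabidopsis from cellulose synthesis, had 31.4, 41.5 and 56.2 CPM at 12 h, against 1.18, 1.70 and 5.75 CPM at 6 h (log2 fold change 3.88 ± 0.69, edgeR adjusted p = 6.1e-04). An alpha-mannosidase that trims N-glycans (NO07G03320) averaged 148 ± 96.9 CPM at 12 h, against 18.1 ± 2.95 CPM at 6 h (log2 fold change 3.04 ± 0.86). Mannosyltransferases and mannosidases together had 10 higher and 4 lower of 19 tested. The oligosaccharyltransferase, which attaches the first glycan in the endoplasmic reticulum, had 2 higher and 1 lower of 7 tested subunits, with a median of 0.02. A xyloglucan glycosyltransferase (NO11G01690) fell, with 519, 456 and 484 CPM at 12 h, against 941, 834 and 928 CPM at 6 h (log2 fold change -0.89 ± 0.08, edgeR adjusted p = 2.7e-06).

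Enzymes that cut beta-glucans were called in both directions. In the list of glucan, cellulose and trehalose metabolism, 16 genes were higher and 18 lower of 54 tested, with a median of 0.01. By at least 2-fold, 8 of them were higher and 3 lower, and the log2 fold changes of the list were -1.39 to 3.41. Cellulose 1,4-beta-cellobiosidase (NO23G00130), which releases cellobiose from cellulose chains, had 852, 1074 and 1009.9 CPM at 12 h, against 100.3, 85.3 and 90.9 CPM at 6 h. The groups were far apart (log2 fold change 3.41 ± 0.23, edgeR adjusted p = 4.6e-07). A glycoside hydrolase of family 8 (NO05G00090) had 743, 1079 and 1033 CPM at 12 h, against 101, 102 and 106 CPM at 6 h (log2 fold change 3.21 ± 0.24, edgeR adjusted p = 8.1e-07). Beta-glucosidase 11 (NO09G01830), which splits cellobiose to glucose, had 1854, 1847 and 1855 CPM at 12 h, against 391, 389 and 449.8 CPM at 6 h (log2 fold change 2.18 ± 0.12, edgeR adjusted p = 1.4e-07). Endoglucanase 24 (NO27G01700) and its neighbour of the same name (NO27G01690), which cut inside cellulose chains, had log2 fold changes of 2.94 ± 0.24 and 2.92 ± 0.22. Against these, an endoglucanase (NO08G02410) fell to 229, 186 and 190.0 CPM at 12 h, against 561, 502 and 523 CPM at 6 h (log2 fold change -1.39 ± 0.09, edgeR adjusted p = 4.9e-07). A second family 8 hydrolase (NO12G02250) averaged 6.20 ± 0.392 CPM at 12 h, against 61.0 ± 50.6 CPM at 6 h (log2 fold change -3.30 ± 1.03). Its groups overlapped, and the call was lost without 6 h replicate a or any single 12 h replicate (edgeR adjusted p = 0.055 to 0.062). Over the 25 tested genes with a hydrolase domain of family 5, 6, 8 or 9, 11 were higher and 9 lower, and 8 of the 11 were at least 2-fold higher.

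Chaperones were called in both directions, also within the endoplasmic reticulum. Of 100 tested heat shock proteins and chaperones, 27 were higher and 22 lower, with a median of 0.05. These counts are near the shares of all tested genes, 23.5% higher and 23.3% lower. Protein disulfide isomerases and lectin chaperones, which fold secreted proteins, had 8 higher and 0 lower of 14 tested, such as a protein disulfide isomerase 5-4 (NO05G04020) with 127 ± 12.9 CPM at 12 h, against 39.8 ± 6.91 CPM at 6 h (log2 fold change 1.67 ± 0.15). ERDJ3B (NO02G01370), a DnaJ protein of the endoplasmic reticulum, had 541, 555 and 563 CPM at 12 h, against 47.4, 164 and 136 CPM at 6 h, and replicate a of 6 h was the lowest library (log2 fold change 2.26 ± 0.46, edgeR adjusted p = 0.0016). Endoplasmin (NO09G02640), the HSP90 of that compartment, had 2862, 2612 and 2748 CPM at 12 h, against 1230.0, 1107 and 929 CPM at 6 h (log2 fold change 1.33 ± 0.14, edgeR adjusted p = 1.3e-05). The other of the 2 genes named endoplasmin was called lower. The 2 genes named after P58IPK, a DnaJ protein of the same compartment, were likewise 1 higher and 1 lower. Calnexin (NO23G00490) averaged 809.5 ± 92.9 CPM at 12 h, against 509 ± 107 CPM at 6 h (log2 fold change 0.67 ± 0.14). HSP90-1 (NO03G01460), of the cytosolic type, went the other way with 1172, 1019 and 1002 CPM at 12 h, against 2463, 2186 and 1861 CPM at 6 h (log2 fold change -1.03 ± 0.11, edgeR adjusted p = 1.3e-05). The 16.6 kDa heat shock protein (NO18G01280), a small chaperone, fell with 37.3, 25.7 and 31.6 CPM at 12 h, against 81.4, 102 and 146 CPM at 6 h (log2 fold change -1.80 ± 0.21, edgeR adjusted p = 2.5e-05). A sulphydryl oxidase (NO28G00040), of a family that makes disulfide bonds, had 167, 187 and 194 CPM at 12 h, against 15.6, 12.2 and 13.4 CPM at 6 h (log2 fold change 3.74 ± 0.18, edgeR adjusted p = 9.0e-08). It was among the 12 largest rises of annotated genes with separate groups and a mean log2 CPM of at least 3.

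**Figure D2:**
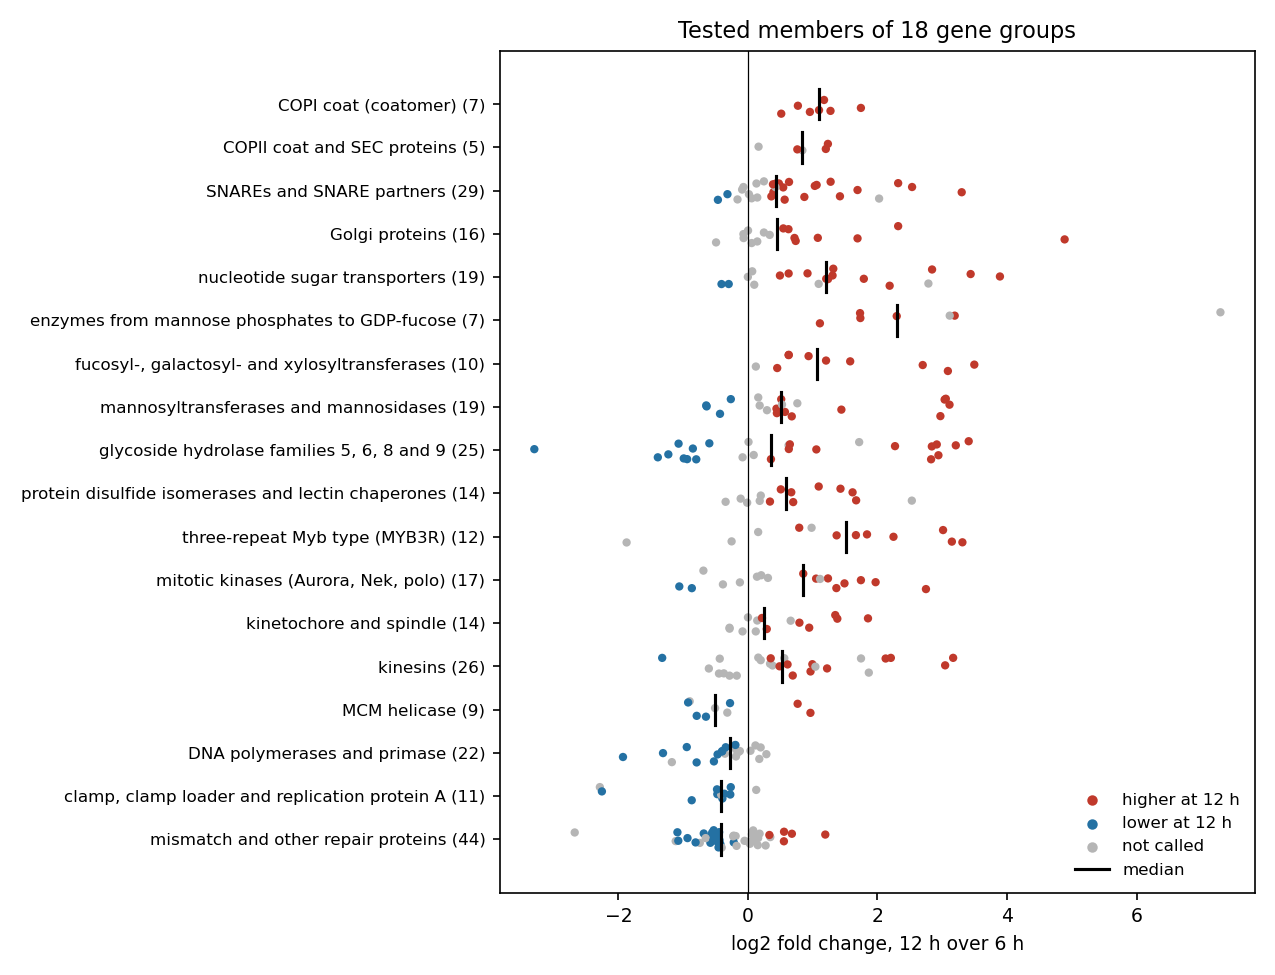
Each point is the log2 fold change, 12 h over 6 h, of 1 tested gene, grouped by function on the y axis with the number of tested genes in brackets, the black bar is the median, and grey points were not called. The 7 coatomer genes and 9 of 10 fucosyl-, galactosyl- and xylosyltransferases were called higher (red), while clamp and clamp loader genes had 8 called lower (blue) and 0 higher, and the glycoside hydrolases spread to both sides.

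A transporter named after SPX proteins rose and a PHO1 exporter fell. Of 16 tested phosphate transporters and SPX proteins, 7 were higher and 2 lower, with a median of 0.52. The gene NO04G02810, annotated by homology as an SPX domain-containing membrane protein of a type that moves phosphate across the vacuole membrane in plants, had 162, 208 and 211 CPM at 12 h, against 48.9, 35.9 and 50.0 CPM at 6 h. All 12 h libraries lay above those of 6 h (log2 fold change 2.11 ± 0.23, edgeR adjusted p = 1.8e-05). Its domains in the table include a Major Facilitator Superfamily transporter and no SPX domain. Its neighbour of the same name (NO04G02820) had 39.3, 4.20 and 6.12 CPM at 12 h, against 4.48, 2.63 and 4.74 CPM at 6 h, with 1 high library. Its call was lost without 12 h replicate a (edgeR adjusted p = 0.48) and without any single 6 h replicate (edgeR adjusted p = 0.060 to 0.10). SPX domain protein 1 (NO10G01110), which does list that domain, had 444, 396 and 298 CPM at 12 h, against 486, 379.7 and 298 CPM at 6 h and was not called (log2 fold change -0.03 ± 0.17). Its other listed domains are a VTC domain and a domain of unknown function. The phosphate exporter PHO1 (NO17G01230) fell, with 182, 153 and 142 CPM at 12 h, against 223, 211 and 212 CPM at 6 h (log2 fold change -0.44 ± 0.12, edgeR adjusted p = 0.009).

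Phosphatases that free phosphate had 6 higher and 4 lower of 18 tested. An alkaline phosphatase-like gene (NO16G02990) had 17.0, 22.6 and 22.0 CPM at 12 h, against 5.27, 6.03 and 7.15 CPM at 6 h (log2 fold change 1.74 ± 0.27, edgeR adjusted p = 2.6e-04). Purple acid phosphatase 7 (NO12G01720), of a family secreted by plants short of phosphate, had 161, 136 and 172 CPM at 12 h, against 80.7, 76.0 and 95.5 CPM at 6 h (log2 fold change 0.89 ± 0.10, edgeR adjusted p = 1.4e-05). Both were higher in every 12 h library. Purple acid phosphatase 7 had been lower at 6 h than at 0 h (log2 fold change -1.08). At 12 h it was not called apart from 0 h (log2 fold change -0.19, edgeR adjusted p = 0.10). A phosphoesterase related to PA-phosphatase (NO11G03580) had 6.62, 10.7 and 16.2 CPM at 12 h, against 245, 213 and 212 CPM at 6 h (log2 fold change -4.32 ± 0.93, edgeR adjusted p = 0.0023). This was the largest fall of the list, with no overlap between the times. Of 5 tested genes of polyphosphate and pyrophosphate 1 was higher and 1 lower. The membrane proton pump driven by pyrophosphate (NO19G01860) averaged 291 ± 13.1 CPM at 12 h, against 161 ± 22.8 CPM at 6 h (log2 fold change 0.86 ± 0.11).

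Genes that remodel membrane lipids included some of the larger rises. Phospholipase D zeta 2 (NO06G04260), which cleaves phosphatidylcholine to phosphatidic acid and in Arabidopsis is induced by lack of phosphate, had 150.1, 157 and 155 CPM at 12 h, against 21.3, 16.4 and 13.2 CPM at 6 h (log2 fold change 3.18 ± 0.22, edgeR adjusted p = 5.3e-07). A lysophospholipase (NO03G04420), which removes the remaining acyl chain, had 91.8, 84.9 and 88.3 CPM at 12 h, against 12.2, 12.4 and 7.64 CPM at 6 h (log2 fold change 3.04 ± 0.19, edgeR adjusted p = 2.6e-07). The 12 h libraries of both genes were close together and far above those of 6 h. The other members balanced them, with 7 higher and 7 lower of 24 tested genes of phospholipid breakdown and a median of -0.09. The sulfolipid synthase SQD2 encoded by NO15G02830 had 86.8, 72.1 and 92.1 CPM at 12 h, against 15.5, 12.0 and 3.80 CPM at 6 h (log2 fold change 3.01 ± 0.39, edgeR adjusted p = 5.8e-05). A second SQD2 gene (NO07G01720) averaged 209.8 ± 16.8 CPM at 12 h, against 151 ± 5.58 CPM at 6 h (log2 fold change 0.48 ± 0.08). That gene had been lower at 6 h than at 0 h (log2 fold change -0.55). At 12 h it was not called apart from 0 h (log2 fold change -0.08, edgeR adjusted p = 0.43). Betaine lipid synthase (NO05G01490), the enzyme of another lipid without phosphorus, was lower, with 59.7, 57.9 and 59.9 CPM at 12 h, against 94.3, 105 and 112 CPM at 6 h (log2 fold change -0.81 ± 0.08, edgeR adjusted p = 4.5e-06). The list of sulfolipid, betaine lipid and galactolipid synthesis had 2 higher and 1 lower of 7 tested, and 4 were not called. Phospholipid synthesis had 2 higher and 3 lower of 15 tested, and its largest rise was choline/ethanolaminephosphotransferase 1 (NO10G01170), the last step to phosphatidylcholine, with 51.5 ± 5.23 CPM at 12 h, against 20.5 ± 2.44 CPM at 6 h (log2 fold change 1.33 ± 0.12).

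**Figure D3:**
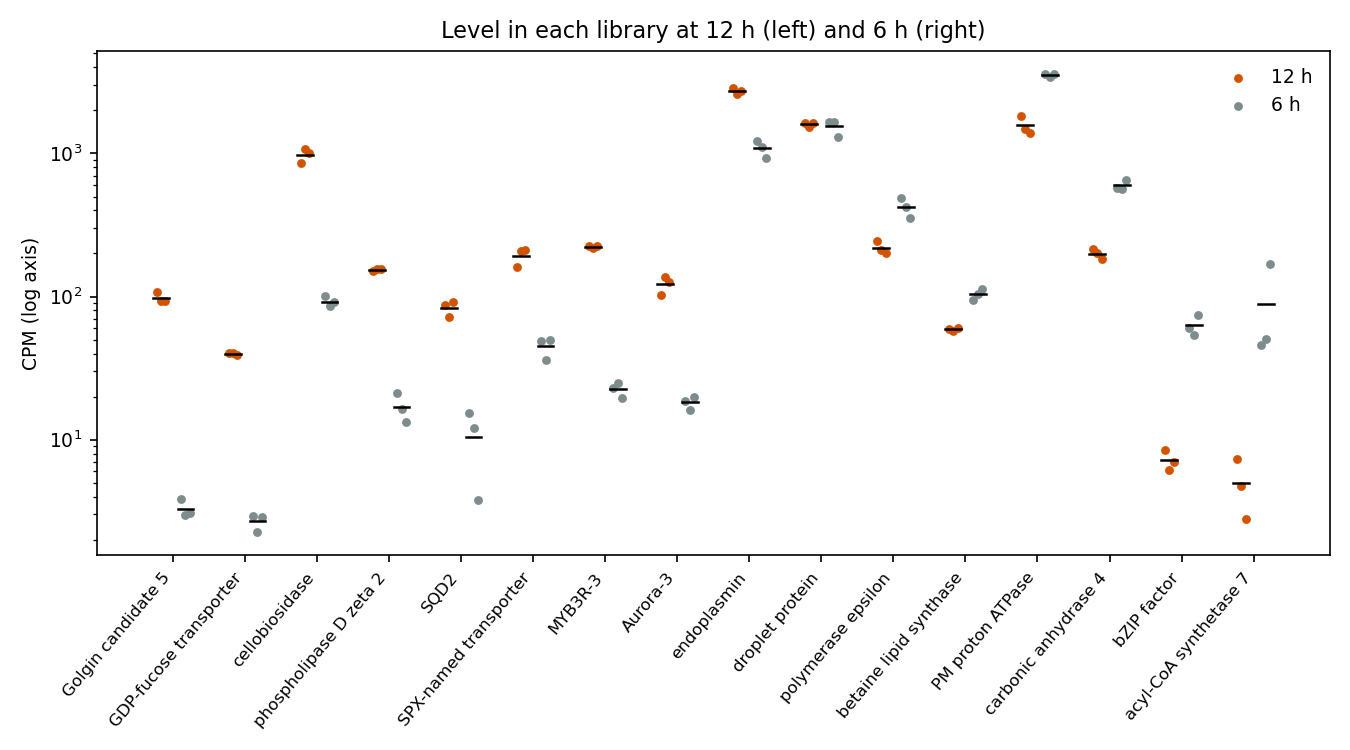
Points are the CPM of single libraries on a log axis for 16 genes, with 12 h in orange on the left and 6 h in grey on the right of each pair and a bar at the mean of 3 libraries. The libraries of the times are apart for 15 of these genes, and for the lipid droplet surface protein they overlap.

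Few genes of oil storage were called higher at 12 h. The lipid droplet surface protein (NO11G02550), the coat protein of the oil droplet, had 1626, 1535 and 1624 CPM at 12 h, against 1663, 1668 and 1302 CPM at 6 h, with overlapping groups (log2 fold change 0.05 ± 0.08, edgeR adjusted p = 0.68). Of 26 tested genes of triacylglycerol synthesis and the droplet, 2 were higher and 9 lower, with a median of -0.23. Diacylglycerol O-acyltransferase 2 (NO08G03480), which adds the last acyl chain of triacylglycerol, had 563, 569 and 604 CPM at 12 h, against 672, 999 and 1263 CPM at 6 h (log2 fold change -0.76 ± 0.16, edgeR adjusted p = 0.002). Lipases had 8 higher and 4 lower of 23 tested, led by a lipase family protein (NO05G00120) with 98.5, 103 and 107 CPM at 12 h, against 17.0, 14.9 and 16.9 CPM at 6 h (log2 fold change 2.66 ± 0.14, edgeR adjusted p = 1.3e-07). A lipolytic protein of the GDSL family (NO06G04440), which was in no list, had 427, 574 and 536 CPM at 12 h, against 40.3, 37.2 and 38.1 CPM at 6 h (log2 fold change 3.73 ± 0.26, edgeR adjusted p = 5.4e-07). The lipase SDP1 (NO14G01540), which starts oil breakdown in Arabidopsis, averaged 229 ± 31.1 CPM at 12 h, against 206 ± 14.4 CPM at 6 h and was not called.

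Fatty acid synthesis held changes of both signs. Of 25 tested genes, 7 were higher and 8 lower, with a median of -0.18. A fatty acid synthase of the animal type (NO06G02810) averaged 200.1 ± 35.4 CPM at 12 h, against 86.6 ± 12.7 CPM at 6 h (log2 fold change 1.21 ± 0.21). Another gene of that name (NO08G01430) averaged 171 ± 33.0 CPM at 12 h, against 393 ± 36.0 CPM at 6 h (log2 fold change -1.20 ± 0.12). Desaturation and elongation had 10 higher and 7 lower of 32 tested, and without 12 h replicate a or 12 h replicate c 6 were higher. Its largest rise was acyl-lipid (7-3)-desaturase (NO26G01770), with 102, 109 and 102 CPM at 12 h, against 30.2, 27.6 and 30.2 CPM at 6 h (log2 fold change 1.83 ± 0.14, edgeR adjusted p = 1.2e-06). Of 3 genes with that name 1 was higher and 1 lower. An elongase of very long chain fatty acids (NO03G03780) averaged 365 ± 43.3 CPM at 12 h, against 116 ± 3.10 CPM at 6 h (log2 fold change 1.66 ± 0.22). A fatty acid elongase (NO01G05250) averaged 32.0 ± 4.94 CPM at 12 h, against 92.7 ± 14.3 CPM at 6 h (log2 fold change -1.54 ± 0.13). Beta-oxidation and peroxisomal genes were mostly lower among those called, with 8 higher and 27 lower of 64 tested. Peroxisomal acyl-CoA synthetase 7 (NO25G00730), which activates fatty acids for breakdown, had 7.32, 4.72 and 2.81 CPM at 12 h, against 45.8, 50.5 and 169 CPM at 6 h (log2 fold change -4.15 ± 0.57, edgeR adjusted p = 9.5e-05). Of 4 genes with that name 1 was higher and 2 lower. The peroxisomal carriers for NAD (NO05G01160) and for adenine nucleotides (NO09G03880) were higher, with log2 fold changes of 1.65 ± 0.09 and 1.43 ± 0.09.

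Few transcripts of photosynthesis were called higher. Of 25 tested light-harvesting proteins, 0 were higher and 9 lower, with a median of -0.08. A fucoxanthin-chlorophyll a-c binding protein (NO25G00860), the gene with the highest FPKM of the table at 12 h, had 28291, 25354 and 26231 CPM at 12 h, against 22088, 22649 and 26335 CPM at 6 h and was not called (log2 fold change 0.17 ± 0.08, edgeR adjusted p = 0.10). Without 6 h replicate c it was called higher (edgeR adjusted p = 0.015). The largest fall among them was that of NO07G03080, of the same name, with 104, 82.7 and 79.0 CPM at 12 h, against 224, 211 and 225 CPM at 6 h (log2 fold change -1.31 ± 0.12, edgeR adjusted p = 4.7e-06). Photosystem and electron transport genes had 1 higher and 3 lower of 12 tested. Chlorophyll and porphyrin synthesis had 2 higher and 14 lower of 27 tested, with a median of -0.21, and 9 were lower without 12 h replicate c. Carotenoid synthesis had 2 higher and 8 lower of 26 tested, and the enzymes of the xanthophyll cycle had calls in both directions. Zeaxanthin epoxidase (NO16G00210), which makes violaxanthin, had 39.6, 64.8 and 54.9 CPM at 12 h, against 11.7, 9.75 and 11.1 CPM at 6 h (log2 fold change 2.29 ± 0.27, edgeR adjusted p = 2.8e-05). Of 3 genes with that name 1 was higher and 1 lower. Violaxanthin de-epoxidase (NO11G00920), which takes it back, averaged 157 ± 10.8 CPM at 12 h, against 287 ± 6.84 CPM at 6 h (log2 fold change -0.87 ± 0.07). Another gene annotated as violaxanthin de-epoxidase (NO03G00410) averaged 108 ± 7.64 CPM at 12 h, against 64.6 ± 2.79 CPM at 6 h (log2 fold change 0.75 ± 0.06).

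Carbon fixation had 4 higher and 6 lower of 21 tested. Alpha carbonic anhydrase 4 (NO20G00630), which converts carbon dioxide and bicarbonate, had 216, 201 and 183 CPM at 12 h, against 573, 563 and 657 CPM at 6 h (log2 fold change -1.58 ± 0.11, edgeR adjusted p = 4.9e-07). The Calvin cycle enzyme sedoheptulose-1,7-bisphosphatase (NO11G01900) had 406, 397 and 371 CPM at 12 h, against 880.3, 866 and 999 CPM at 6 h (log2 fold change -1.23 ± 0.08, edgeR adjusted p = 4.4e-07). Both were lower in every 12 h library than in any 6 h library. Glycolysis and gluconeogenesis had 13 higher and 20 lower of 47 tested, and glyceraldehyde-3-phosphate dehydrogenase (NO09G03360) averaged 122 ± 9.75 CPM at 12 h, against 362 ± 78.1 CPM at 6 h (log2 fold change -1.57 ± 0.14). The phosphoglycerate mutase encoded by NO06G00320, also of glycolysis, rose to 49.8, 52.1 and 50.1 CPM at 12 h, against 8.40, 8.98 and 10.1 CPM at 6 h (log2 fold change 2.47 ± 0.16, edgeR adjusted p = 3.4e-07). Of 4 genes with that name 2 were higher and 1 lower. The tricarboxylic acid cycle had 10 higher and 5 lower of 26 tested, led by 2-oxoglutarate dehydrogenase E1 (NO16G00280) with 139.9, 140.3 and 135 CPM at 12 h, against 38.1, 36.0 and 51.7 CPM at 6 h (log2 fold change 1.72 ± 0.12, edgeR adjusted p = 5.9e-07). The respiratory chain had 14 higher and 2 lower of 33 tested, with a median of 0.16, and complex I alone had 9 higher and 1 lower of 19 tested. The largest rise of that list was that of a complex I subunit (NO15G02730) with 297 ± 20.6 CPM at 12 h, against 164 ± 16.6 CPM at 6 h (log2 fold change 0.85 ± 0.08).

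Few genes of the cytosolic ribosome passed the test. Of 76 tested cytosolic ribosomal proteins, 13 were higher and 0 lower, a share of risers below the 23.5% of all genes, with a median of 0.14. The highest mean of the 5 times was at 12 h for 59 of the 76, against 27.7% of all tested genes, a description without a test. The count of risers depended on single libraries, with 32 without 12 h replicate a, 6 without 12 h replicate b or 12 h replicate c and 5 without 6 h replicate c, and it was 6 under upper-quartile scaling. L10-1 (NO14G03270), a protein of the large subunit, had 882, 1003 and 984 CPM at 12 h, against 979, 938 and 946 CPM at 6 h and was not called. Ribosome biogenesis had 30 higher and 10 lower of 90 tested, among the risers a protein of the 16S rRNA-processing type (NO27G00180) with 89.4 ± 8.48 CPM at 12 h, against 22.8 ± 1.32 CPM at 6 h (log2 fold change 1.97 ± 0.13). Organellar ribosomal proteins had 11 higher and 1 lower of 27 tested, with the largest called rise in the chloroplast protein L4 (NO22G02080), at 114 ± 9.89 CPM at 12 h, against 54.4 ± 4.21 CPM at 6 h (log2 fold change 1.06 ± 0.25). Of 47 tRNA synthetases, which load amino acids on tRNA, 3 were higher and 8 lower, and 5 were lower without 12 h replicate b.

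Several groups of mitotic genes were higher at 12 h, and others had calls in both directions. The list of the cell cycle and chromosome partitioning had 30 higher and 19 lower of 110 tested, and 24 and 25 under upper-quartile scaling, so its balance rests on the scaling. Transcription factors of the three-repeat Myb family (MYB3R), known in Arabidopsis to control genes of mitosis, had 8 higher and 0 lower of 12 tested. MYB3R-3 (NO10G02690) had 224, 220.1 and 225 CPM at 12 h, against 22.9, 25.0 and 19.6 CPM at 6 h (log2 fold change 3.31 ± 0.17, edgeR adjusted p = 1.2e-07). MYB3R-5 (NO27G01050) averaged 159.5 ± 25.5 CPM at 12 h, against 17.99 ± 0.647 CPM at 6 h (log2 fold change 3.15 ± 0.47). A further Myb gene (NO24G00630) averaged 255 ± 17.6 CPM at 12 h, against 27.9 ± 2.42 CPM at 6 h (log2 fold change 3.19 ± 0.18). Aurora-3 (NO04G04240), a kinase of chromosome segregation, had 103, 137 and 127 CPM at 12 h, against 18.7, 16 and 20.0 CPM at 6 h (log2 fold change 2.75 ± 0.23, edgeR adjusted p = 1.8e-06). Kinases of the Aurora, Nek and polo types had 8 higher and 2 lower of 17 tested.

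The kinetochore, which ties chromosomes to spindle microtubules, had 7 higher and 0 lower of 14 tested genes of kinetochore and spindle. NDC80 (NO17G02070), its microtubule-binding protein, had 638, 647 and 620.0 CPM at 12 h, against 266, 250.5 and 216 CPM at 6 h (log2 fold change 1.38 ± 0.18, edgeR adjusted p = 7.2e-05). Cyclin-B2-1 (NO12G01680), a cyclin of entry into mitosis, had 183, 173 and 178 CPM at 12 h, against 78.5, 74.7 and 53.6 CPM at 6 h (log2 fold change 1.37 ± 0.23, edgeR adjusted p = 4.1e-04). Cyclins as a whole had 4 higher and 3 lower of 24 tested and a cyclin-like protein (NO20G00410) fell, with 84.6 ± 8.60 CPM at 12 h, against 241 ± 20.3 CPM at 6 h (log2 fold change -1.51 ± 0.10). The list of tubulin, actin and motors had 26 higher and 21 lower of 106 tested, and 24 and 26 under upper-quartile scaling. The anaphase-promoting complex, a ubiquitin ligase of mitotic exit, had 2 higher and 2 lower of 13 tested. Condensin, cohesin and other SMC proteins, which shape chromosomes, had 5 higher and 4 lower of 12. Kinesins, motors that walk on microtubules, had 11 higher and 1 lower of 26 tested. A kinesin-like protein (NO03G04880) had 186, 229 and 214 CPM at 12 h, against 25.8, 22.1 and 22.1 CPM at 6 h (log2 fold change 3.17 ± 0.23, edgeR adjusted p = 7.3e-07). Its 12 h libraries were all several times above those of 6 h. Genes named after dynein, flagella and intraflagellar transport had 5 higher and 13 lower of 37 tested. Actin (NO03G02590) averaged 1712 ± 338 CPM at 12 h, against 559 ± 137 CPM at 6 h (log2 fold change 1.61 ± 0.17) and tubulin alpha-2 (NO12G02410) 4334 ± 459 CPM at 12 h, against 2725 ± 473 CPM at 6 h (log2 fold change 0.67 ± 0.14). Tubulins and tubulin folding genes together had 3 higher and 5 lower of 22 tested, with a median of -0.16. Histones, which pack DNA, had 6 higher and 0 lower of 12 tested, with the H2A variant 2 (NO22G01340) at 1404, 1893 and 1558 CPM at 12 h, against 717, 549.6 and 529 CPM at 6 h (log2 fold change 1.43 ± 0.17, edgeR adjusted p = 3.1e-05).

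DNA replication and repair was the list with the lowest median, -0.34, and had 15 higher and 56 lower of 127 tested. Replicative polymerases fell together. DNA polymerase epsilon (NO09G01170), of the leading strand, had 244, 211 and 203 CPM at 12 h, against 486, 426 and 354 CPM at 6 h (log2 fold change -0.94 ± 0.11, edgeR adjusted p = 2.2e-05). DNA polymerase delta (NO26G00900), of the lagging strand, had 136, 125 and 130.1 CPM at 12 h, against 256, 242 and 179 CPM at 6 h (log2 fold change -0.79 ± 0.12, edgeR adjusted p = 1.6e-04). Over all DNA polymerases and primases 10 were lower and 0 higher of 22 tested. The sliding clamp PCNA (NO06G02560) averaged 308 ± 11.7 CPM at 12 h, against 405 ± 33.4 CPM at 6 h (log2 fold change -0.39 ± 0.07). The clamp, clamp loader and replication protein A together had 8 lower and 0 higher of 11 tested. Ribonucleotide reductase and thymidylate genes, which supply nucleotides, had 2 higher and 2 lower of 8 tested. The MCM helicase, which opens DNA at origins, had 2 higher and 4 lower of 9 tested. Mismatch and other repair proteins had 5 higher and 19 lower of 44 tested, such as XRCC3 (NO25G01100), of repair by recombination, with 80.0 ± 7.37 CPM at 12 h, against 169.9 ± 20.8 CPM at 6 h (log2 fold change -1.09 ± 0.09). The largest rises of the list were PIF1 helicases, which unwind DNA. The one encoded by NO06G04620 had 47.7, 69.7 and 84.6 CPM at 12 h, against 2.30, 1.31 and 14.0 CPM at 6 h (log2 fold change 3.50 ± 1.23, edgeR adjusted p = 0.035), and its call was lost without 6 h replicate a, 6 h replicate b, 12 h replicate b or 12 h replicate c (edgeR adjusted p = 0.061 to 0.105).

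**Figure D4:**
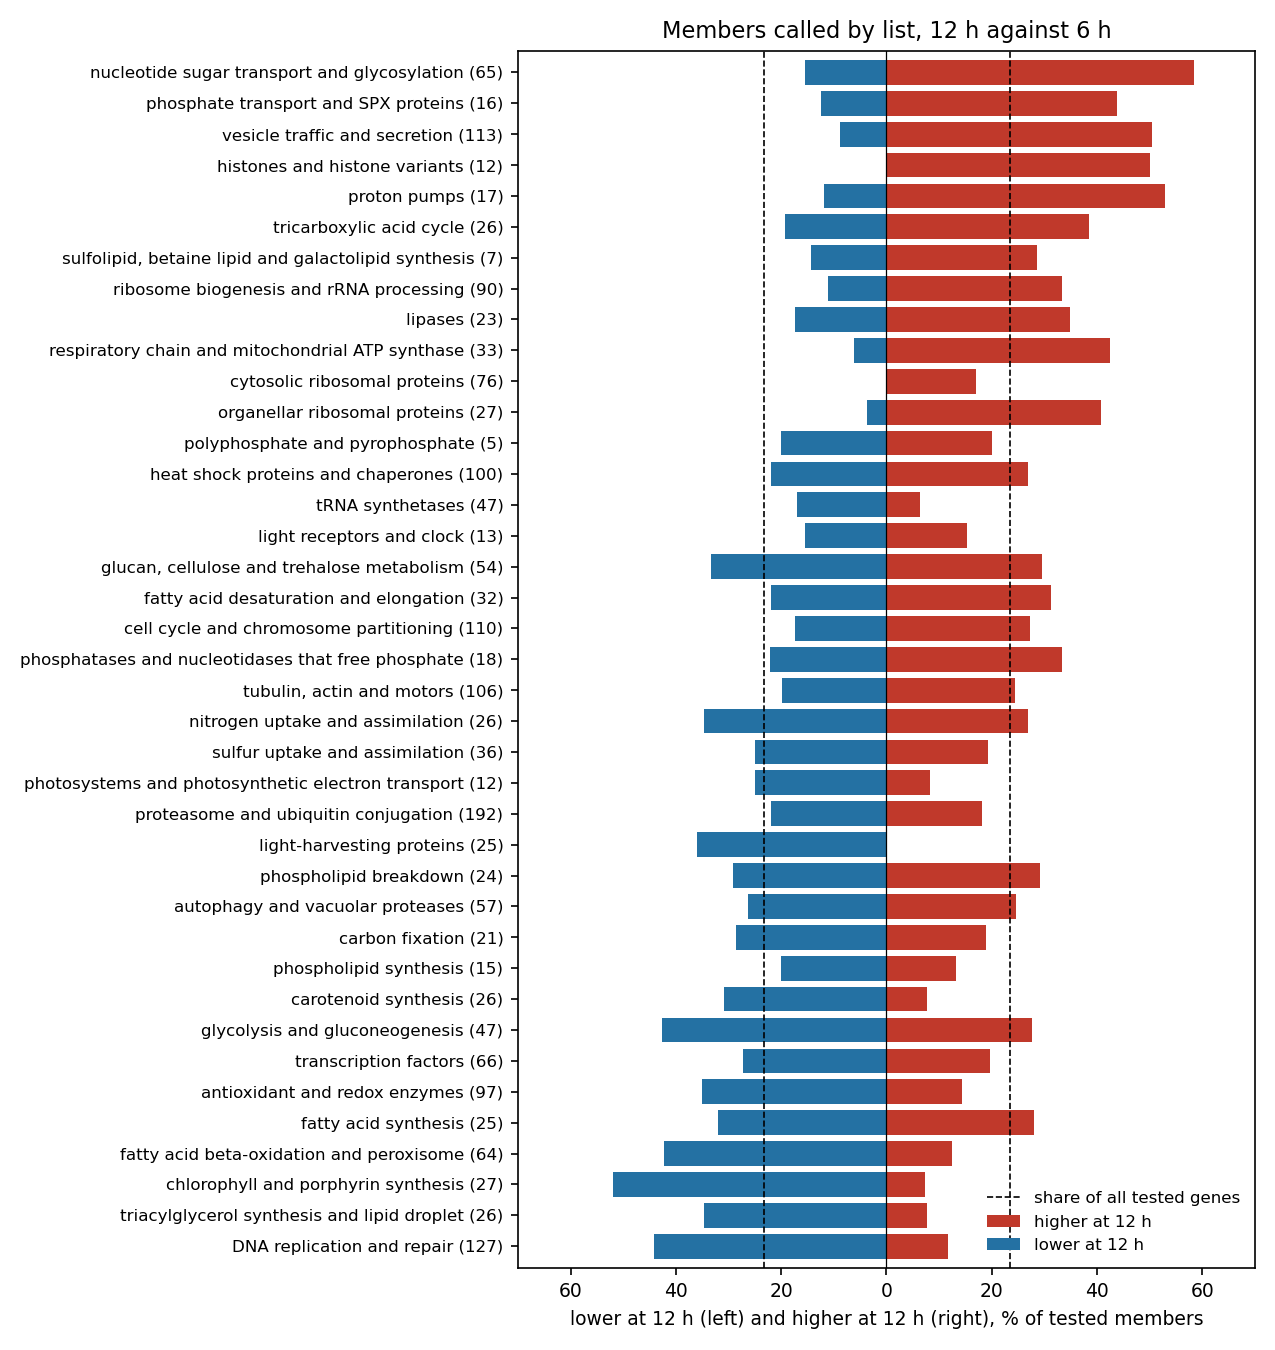
For each of the 39 gene lists, with the number of tested members in brackets, the red bar to the right gives the % of members called higher at 12 h and the blue bar to the left the % called lower, ordered by median log2 fold change. The dashed lines mark the shares of all tested genes, 23.5% higher and 23.3% lower, which glycosylation and vesicle traffic exceed to the right and chlorophyll synthesis and DNA replication to the left.

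Most subunits of the vacuolar type proton pump were higher, and 1 of 5 tested plasma membrane pumps was called lower. V-type ATPase subunits, which acidify the vacuole and other compartments, had 8 higher and 0 lower of 10 tested, at log2 fold changes of 0.04 to 0.73 over all 10. The 16 kDa subunit (NO14G03000) averaged 968 ± 39.4 CPM at 12 h, against 619.6 ± 21.9 CPM at 6 h (log2 fold change 0.64 ± 0.06). Plasma membrane proton ATPases had 0 higher and 1 lower of 5 tested, and 4 were not called. Their log2 fold changes were -1.16 to 2.01, with a median of 0.15. A plasma membrane proton ATPase (NO12G00370), which energises uptake from the medium, fell, with 1842, 1493 and 1400.0 CPM at 12 h, against 3610.5, 3403 and 3598 CPM at 6 h (log2 fold change -1.16 ± 0.10, edgeR adjusted p = 2.9e-06). Its neighbour of the same name (NO12G00380) had 618, 686 and 463 CPM at 12 h, against 1044, 794 and 785 CPM at 6 h and was not called (edgeR adjusted p = 0.15), but was without 48 h replicate b (edgeR adjusted p = 0.010). The sources do not say how reads shared by near-identical copies were counted, so levels of genes that share a name are uncertain.

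Sulfur uptake and assimilation had 7 higher and 9 lower of 36 tested. The sulfate transporter 3.5 (NO17G02590) had 554, 561 and 567 CPM at 12 h, against 167, 153 and 124 CPM at 6 h (log2 fold change 1.92 ± 0.16, edgeR adjusted p = 1.8e-06). Serine acetyltransferase 2 (NO07G00510), which makes the acceptor of reduced sulfur, had 329.9, 336 and 379.5 CPM at 12 h, against 149, 139 and 111 CPM at 6 h (log2 fold change 1.39 ± 0.11, edgeR adjusted p = 1.7e-06). Between these steps, the sulfate-activating ATP sulfurylase 2 (NO14G02380) was lower, with 97.2, 108 and 91.4 CPM at 12 h, against 191, 186 and 178 CPM at 6 h (log2 fold change -0.90 ± 0.09, edgeR adjusted p = 6.7e-06). Nitrogen assimilation had 7 higher and 9 lower of 26 tested, with 1 higher and 1 lower of 3 genes named nitrate reductase. The higher one (NO14G02460) averaged 1360.5 ± 144 CPM at 12 h, against 998 ± 170.0 CPM at 6 h (log2 fold change 0.45 ± 0.12). The nitrite transporter nar1 (NO07G02740) averaged 59.9 ± 3.22 CPM at 12 h, against 113 ± 9.17 CPM at 6 h (log2 fold change -0.91 ± 0.06). Antioxidant and redox enzymes had 14 higher and 34 lower of 97 tested. Thioredoxin M4 (NO11G02940), a chloroplast regulator of enzymes by disulfide reduction, rose to 480.3, 548 and 522 CPM at 12 h, against 186, 179.8 and 161 CPM at 6 h (log2 fold change 1.56 ± 0.10, edgeR adjusted p = 3.7e-07). Lactoylglutathione lyase (NO16G00940), which removes methylglyoxal, averaged 2.75 ± 0.900 CPM at 12 h, against 13.4 ± 1.70 CPM at 6 h (log2 fold change -2.28 ± 0.26).

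Among transcription factors, 13 were higher and 18 lower of 66 tested. The sharpest fall was that of a bZIP factor (NO02G00670), with 8.44, 6.10 and 6.93 CPM at 12 h, against 60.6, 53.6 and 74.4 CPM at 6 h (log2 fold change -3.13 ± 0.14, edgeR adjusted p = 5.1e-08). No library of 12 h reached those of 6 h. The clock-type factor CCA1 (NO01G04790) averaged 171 ± 35.8 CPM at 12 h, against 195 ± 48.3 CPM at 6 h and was not called. Proteasome and ubiquitin genes had 35 higher and 42 lower of 192 tested. Deubiquitinases, which remove ubiquitin, had 1 higher and 6 lower of 25 tested, and the ubiquitin ligase TRIM23 (NO02G04010) averaged 302 ± 50.0 CPM at 12 h, against 59.9 ± 3.03 CPM at 6 h (log2 fold change 2.33 ± 0.21). Autophagy and vacuolar protease genes had 14 higher and 15 lower of 57 tested. The aspartic proteinases Asp1 (NO13G01470) and oryzasin-1 (NO09G03840), proteases of acidic compartments, rose with log2 fold changes of 2.69 ± 0.18 and 2.62 ± 0.23, and ATG2 (NO14G00700), which feeds lipid to the growing autophagosome, averaged 10.4 ± 1.70 CPM at 12 h, against 24.1 ± 2.84 CPM at 6 h (log2 fold change -1.21 ± 0.15).

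Outside the gene lists, the 12 largest rises and 12 largest falls of annotated genes with separate groups held further single genes. Delta(14)-sterol reductase (NO07G01540), of sterol synthesis, had 155, 119 and 92.1 CPM at 12 h, against 1.62, 1.70 and 0.976 CPM at 6 h (log2 fold change 6.42 ± 1.02, edgeR adjusted p = 2.8e-04). A pentatricopeptide repeat protein (NO26G01440), of a family that binds organelle RNA, had 869, 959 and 957 CPM at 12 h, against 39.2, 65.7 and 46.3 CPM at 6 h (log2 fold change 4.20 ± 0.71, edgeR adjusted p = 4.3e-04). Cullin-1 (NO25G02070), a scaffold of ubiquitin ligases, had 37.1, 43.2 and 44.0 CPM at 12 h, against 2.41, 3.01 and 2.30 CPM at 6 h (log2 fold change 4.01 ± 0.23, edgeR adjusted p = 1.9e-07). Against it, 2 of the 4 genes with that name were called lower. No 6 h library of these 3 genes came near those of 12 h. Rhomboid-like protein 15 (NO07G03110), of a family of membrane proteases, averaged 102 ± 9.83 CPM at 12 h, against 6.39 ± 2.77 CPM at 6 h (log2 fold change 3.997 ± 0.84). Among the falls, a far upstream element-binding protein (NO21G00380), with RNA-binding KH domains, had 17.4, 13.1 and 15.7 CPM at 12 h, against 59.4, 82.0 and 78.1 CPM at 6 h (log2 fold change -2.25 ± 0.17, edgeR adjusted p = 1.2e-06). The folate enzyme FolD 2 (NO06G02730) had 3.26, 7.997 and 5.31 CPM at 12 h, against 171, 8.66 and 203 CPM at 6 h, with 1 of the 6 h libraries near those of 12 h, and its call was lost without any single 12 h replicate, without 6 h replicate a or 6 h replicate c and without 6 libraries of the other times, taken 1 at a time (edgeR adjusted p = 0.051 to 0.12).

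Most genes that rose were at their highest mean of the course at 12 h. Of the 2190 genes called higher, 1651 had their highest mean of the 5 times at 12 h, as did 2583 of all 9321 tested genes (27.7%). Of the 2168 called lower, 1048 were highest at 0 h and 690 at 6 h. The choice of risers favours a peak at 12 h, so these counts are a description. Golgin candidate 5 (NO15G01410) averaged 2.41, 3.30, 97.8, 3.09 and 5.78 CPM at 0, 6, 12, 24 and 48 h. In the same order, coatomer epsilon-1 (NO07G04560) averaged 42.6, 75.9, 254, 76.8 and 79.8 CPM, and MYB3R-3 (NO10G02690) averaged 17.8, 22.5, 223, 42.0 and 54.5 CPM. All 3 were far lower at 24 h than at 12 h. Cellobiosidase (NO23G00130) averaged 85.0, 92.2, 978, 221 and 438 CPM, and phospholipase D zeta 2 (NO06G04260) averaged 11.4, 17.0, 154, 36.3 and 52.7 CPM. SQD2 (NO15G02830) took another course, with 5.83, 10.4, 83.7, 44.1 and 129.6 CPM, and was highest at 48 h. DNA polymerase epsilon (NO09G01170) had its peak at 6 h, with 68.7, 422, 219, 202 and 119 CPM, and NDC80 (NO17G02070) followed at 12 h with 72.2, 244, 635, 141 and 169.9 CPM.

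The comparison of 24 h with 12 h shares the 12 h libraries with that of 12 h with 6 h, so opposite signs are partly built in and the values stand side by side only. The fitted log2 ratio, 24 h over 12 h, was -4.98 for Golgin candidate 5 (NO15G01410), -2.43 for GDP-mannose 4,6-dehydratase 2 (NO12G00550), -2.09 for phospholipase D zeta 2 (NO06G04260), -1.80 for the SPX-named transporter (NO04G02810) and -1.46 for endoplasmin (NO09G02640). For the bZIP factor (NO02G00670), which fell at 12 h, it was 1.96. Plasma membrane proton ATPase (NO12G00370) averaged 8610.4, 3537, 1578, 5178 and 4656 CPM over the 5 times.

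**Figure D5:**
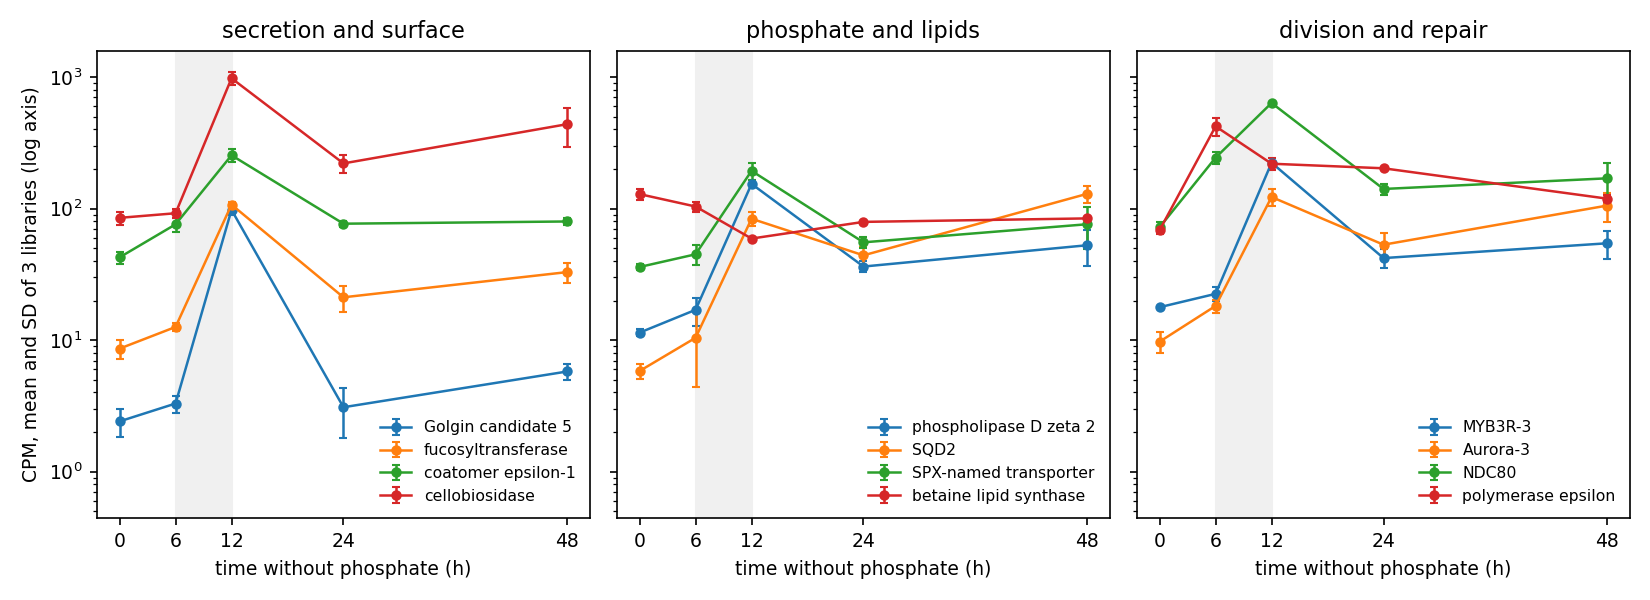
Mean CPM of 3 libraries, with SD as error bars, on a log axis against hours without phosphate for 4 genes of secretion and surface, 4 of phosphate and lipids and 4 of division and repair, with the span from 6 to 12 h shaded. Golgin candidate 5, the fucosyltransferase, coatomer epsilon-1, cellobiosidase, phospholipase D zeta 2, the SPX-named transporter, MYB3R-3, Aurora-3 and NDC80 peak at 12 h, polymerase epsilon at 6 h, betaine lipid synthase is lowest at 12 h and SQD2 is highest at 48 h. Aurora-3 was not called apart between 48 h and 12 h (log2 fold change, 48 h over 12 h, -0.22, edgeR adjusted p = 0.43).

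Genes without a name were 758 of the 2190 called higher, close to their share of all tested genes (3084 of 9321), and 213 of the 410 at least 4-fold higher. NO17G02930, the one with the highest mean CPM of the risers, had 11942, 5059 and 15104 CPM at 12 h, against 3644, 1343 and 3118 CPM at 6 h (log2 fold change 1.99 ± 0.43, edgeR adjusted p = 0.0023), and its libraries spread widely within each time. NO29G01450, whose product has a PT repeat, had 5653, 5832 and 5768 CPM at 12 h, against 871, 862 and 689.6 CPM at 6 h (log2 fold change 2.83 ± 0.60, edgeR adjusted p = 0.002). NO01G05550 had 1372, 1342 and 1297 CPM at 12 h, against 99.9, 95.2 and 88.2 CPM at 6 h (log2 fold change 3.82 ± 0.20, edgeR adjusted p = 1.1e-07). Both were tight within times, and were singled out after their values were seen. NO07G04520 had 841, 817 and 707 counts at 12 h, against 2 in each 6 h library, and averaged 23.5, 0.0971, 43.5, 69.5 and 52.1 CPM over the 5 times, so that 6 h was its exception. NO07G04410 had 34.0, 47.5 and 40.4 CPM at 12 h, against 0.448, 0.219 and 0.139 CPM at 6 h, and NO09G00550 had 0.513, 0.518 and 0.562 CPM at 12 h, against 172, 158 and 159 CPM at 6 h. These rose and fell beyond the spread of their libraries (edgeR adjusted p = 2.6e-05 and 5.0e-07).

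Large fitted folds did not always rest on steady libraries. In 208 tested genes 1 library had under 10 counts while a second one from its own time had at least 100, of which 8 were called higher and 5 lower. Phosphoribosylaminoimidazole carboxylase (NO02G00950), an enzyme of purine synthesis, had 0.793, 0.0575 and 115 CPM at 12 h, against 0.0560, 0.0548 and 0.0349 CPM at 6 h, so that 1 library carried its fold. Its call was lost without 12 h replicate c (edgeR adjusted p = 0.30) and without any single 6 h replicate (edgeR adjusted p = 0.066 to 0.071). Glucokinase (NO02G05650) had 0.420, 0.115 and 125 CPM at 12 h, against 0.224, 0.0548 and 0.105 CPM at 6 h, with 1 high library. Its call was lost without 12 h replicate c (edgeR adjusted p = 0.65) and without any single 6 h replicate (edgeR adjusted p = 0.054 to 0.067). The ubiquitin ligase listerin (NO12G02380) had 55.7, 1.38 and 0.437 CPM at 12 h, against 0.280, 1.26 and 0.384 CPM at 6 h, and its call was lost without 12 h replicate a (edgeR adjusted p = 0.65) and without 6 h replicate a or 6 h replicate c (edgeR adjusted p = 0.063 to 0.064). Fructose-bisphosphate aldolase 8 (NO01G03170), of glycolysis, had 1, 1 and 2 counts at 12 h, against 3184, 968 and 651 at 6 h, and averaged 425, 84.7, 0.0764, 0.0928 and 369.8 CPM over the 5 times. Chloroplast transketolase (NO08G02220), of the Calvin cycle, had 2598, 2569 and 2405 CPM at 12 h, against 12.2, 3313 and 95.6 CPM at 6 h and was not called. How far the counting of reads between overlapping or similar genes enters such values was not tested. Of 965 names shared by at least 2 tested genes, 145 had members called in both directions.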

How the data were processed

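RNA of 15 libraries, 3 at each of 0, 6, 12, 24 and 48 h without phosphate, was measured in 1 deposited table. The authors deposited estimated counts as whole numbers and FPKM, per the file headers, for 10434 genes with annotations, of which 6714 had a name from Swiss-Prot, NR or KEGG and 118 were newly assembled. HISAT2 aligned the reads, per the submitters' processing notes. Its version, like the genome build, the counting tool and the strand setting, was not given in the sources used here. Replicates were not pooled, and columns were matched to samples by time and letter.

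The deposited estimated counts were used as they stood. Genes were filtered with filterByExpr, which left 9321, scaled by TMM, and tested for 12 h against 6 h with edgeR's quasi-likelihood test (version 4.0.16) in a fit of group means over all 15 libraries, which share 1 estimate of the spread. P-values were adjusted by Benjamini-Hochberg over the 9321 genes, with 0.05 as threshold. Each SE was computed as the size of the log2 fold change over the root of its F statistic. The test was checked on simulated counts. Deposited FPKM served to compare levels between genes.

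The 39 gene lists were made by matching words in the gene descriptions. The comparison, its members and the lists were chosen with earlier results of these data known. By rule, the text could name 205 genes: the 12 largest rises and 12 largest falls with separate groups, a mean log2 CPM of at least 3 and a description; the 2 largest rises and falls of each list and of the genes with no description; the 5 with the highest mean CPM; and in each list the most abundant member of at least 100 CPM that was not called. Another 80 genes, the subgroups and the domain groups were chosen after values were seen. The labels do not say that a letter marks 1 culture, so the fit has no block. Same-letter libraries did not deviate together, with 0 of 30 pairs over 0.1 in the correlation of deviations (-0.088 to 0.077). That cannot show whether they share a culture. Alternatives were DESeq2 (1.42.0), its size factors, upper-quartile scaling, other filters, a block, a 2-fold threshold, only the 6 libraries, and each library left out. R 4.3.3, limma 3.58.1, Python 3.11.15, pandas 2.3.3 and matplotlib 3.10.9 were used.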

Additional observations from a re-analysis of the deposited data

How the results depend on the processing

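Under the other scalings, tests, filters and sets of libraries, genes called higher and lower numbered 2163 and 2223 with DESeq2 size factors, 1901 and 2612 with upper-quartile scaling, 2274 and 2369 with DESeq2, 2166 and 2138 with no filter, 2163 and 2123 with at least 50 counts in 3 libraries, and 1866 and 1632 with only the 6 libraries compared. With 1 library left out at a time they ranged from 1999 to 2172 higher and from 1882 to 2155 lower. Asking for at least 2-fold as well left 970 higher and 290 lower, 1260 in all, and 219 calls among list members. The replicate letter as a block gave 2113 higher and 2079 lower, but the labels do not say whether a letter pairs libraries. With only the 6 libraries compared, lower calls were 20 and not 34 for antioxidant enzymes, 17 and not 27 for beta-oxidation, 9 and not 15 for autophagy, 8 and not 14 for chlorophyll synthesis and 3 and not 8 for tRNA synthetases. Cytosolic ribosomal proteins then had 5 higher and not 13, and the respiratory chain 9 and not 14. Without the 13 called genes whose libraries disagree most, and others like them, 2186 were higher and 2168 lower, an alternative chosen after seeing the data. Of the 244 called genes named by the rule or after values were seen, 31 lost the call without some single library and 26 under another scaling, test, filter or block, while 0 of the 285 named genes reversed in any of the 24 alternatives. The cause was not tested. With 3 libraries a time, and no depth above 26349336 counts, changes in genes of a few counts are not detectable.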
